A study of Mus musculus with 12 samples.

Results

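The genes described here are the interferon-inducible GTPases of the Gbp and Irg families and the genes named Ifi, Ifitm, Irf and Irf2bp, measured in mouse liver. They were chosen by name: every gene of the count table whose GENCODE vM1 symbol starts with Gbp, Irgm, Iigp, Igtp, Tgtp or Ifitm, or with Ifi or Irf and a digit, except Ifi44 and Irf7, with at least 1 count in the series. The annotation holds 43 such symbols, 22 of which have no row in the table and are not analysed here. The remaining 21 genes had counts, out of 28151 genes with counts in all. They comprise 1 guanylate-binding protein (Gbp3), 1 immunity-related GTPase (Irgm1), 2 genes of the p200 family (Ifi202b and Ifi205), 4 Ifitm genes (Ifitm1, Ifitm3, Ifitm6 and Ifitm7), 5 further Ifi genes (Ifi27l1, Ifi27l2a, Ifi27l2b, Ifi30 and Ifi35), 6 interferon regulatory factors (Irf1, Irf2, Irf3, Irf4, Irf5 and Irf8) and 2 corepressors that bind Irf2 (Irf2bp1 and Irf2bp2). Ifitm7 had 6 counts, all in 1 library, and failed the filter on low counts, so that 20 genes were tested.

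Interferons bind receptors on the cell surface and signal through Janus kinases to the nucleus. The targets carry DNA elements in front of their starts, the interferon-stimulated response element (ISRE) for type I and type III interferons and the gamma-activated sequence (GAS) for interferon gamma. Guanylate-binding proteins and immunity-related GTPases coat or regulate membranes around intracellular microbes, p200 proteins include sensors of DNA, and Ifitm proteins hinder the fusion of viruses with cell membranes. Interferon regulatory factors bind the same response elements. Irf1 is itself induced by interferon and activates many of the targets, Irf2 often opposes it, Irf3 and Irf5 pass on signals from nucleic acid sensors and Toll-like receptors, and Irf4 and Irf8 act mainly in lymphoid and myeloid cells. In liver, hepatocytes as well as Kupffer cells, the resident macrophages, respond to interferons.

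Liver RNA was depleted of rRNA and sequenced in 4 groups of 3 C57BL/6 mice, 5 to 7 weeks of age per the study's methods. The groups were wild-type mice on plain water, wild-type mice on 2% dextran sodium sulfate (DSS, a detergent-like polymer that injures the colon) in the drinking water for 6 days, and mice labelled RelaΔhepStat3Δhep (Rela and Stat3 knockout) under the same 2 conditions. In RelaΔhepStat3Δhep mice, Cre recombinase under the albumin promoter deletes Rela, a subunit of NF-κB, and Stat3 in hepatocytes, while the other cells of the liver keep both genes. The wild-type mice were Cre-negative littermates that carry floxed alleles. Males and females were both in use per the study's methods, and the labels give no sex.

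Each library held between 65879529 and 82850098 estimated counts. Levels are given as CPM (estimated counts relative to the TMM-scaled library size), and differences as log2 fold changes with their standard error from edgeR, with p-values adjusted by the Benjamini-Hochberg method over 17652 genes. The second DSS-treated wild-type library stood apart by its scaling factor of 0.758 and by its neutrophil markers, whose sum was 102 CPM against 0.345 to 21.9 CPM in the other 11 libraries. Sex-linked transcripts did not follow the groups evenly. Xist was at 1283, 903 and 919 CPM in the 3 DSS-treated RelaΔhepStat3Δhep livers, where the summed Y-linked transcripts were at most 0.120 CPM, and at 1143 CPM in the third untreated wild-type liver, which also held 30.1 CPM of Y-linked transcripts. Whether that library comes from 1 mouse or is a mixture was not tested, and it is the only wild-type library with high Xist. In the other 8 livers Xist was at most 29.0 CPM and Y-linked transcripts lay between 175 and 241 CPM. All 3 DSS-treated RelaΔhepStat3Δhep livers had high Xist and all 3 untreated ones did not, so the effect of DSS in this genotype and the difference in sex-linked transcripts cannot be told apart. Rela lay at 45.5, 54.5 and 41.2 CPM in untreated wild-type and 42.8, 43.8 and 51.4 CPM in untreated RelaΔhepStat3Δhep liver, and Stat3 at 45.7, 138 and 87.6 and 45.9, 46.7 and 49.7 CPM. With DSS Rela lay at 41.1, 39.8 and 55.5 CPM in wild-type and 39.5, 62.3 and 46.4 CPM in RelaΔhepStat3Δhep liver, and Stat3 at 63.2, 329.5 and 307 and 43.0, 58.0 and 74.8 CPM. The log2 differences were -0.03 and -0.93 without and 0.12 and -1.99 with DSS. None passed the test (edgeR adjusted p = 0.961 and 0.542 without and 0.827 and 0.175 with DSS), and counts of whole genes do not resolve the deleted exons.

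The sequences in front of the GTPase genes Gbp3 and Irgm1 are shown because both genes rose with DSS in RelaΔhepStat3Δhep mice and each carries 2 overlapping ISRE matches close to a start. The Irf1 sequence is shown for its GAS, the element through which interferon gamma is known to act on this gene. Gbp3 and Irf1 have a second start in RefSeq, whose window holds no match. All are the 250 bases before a transcription start, from RefSeq on GRCm38.p6, at chr3:142559794-142560043 (plus strand) for Gbp3, chr11:48871421-48871670 (minus strand) for Irgm1 and chr11:53769764-53770013 (plus strand) for Irf1, with the motif matches in capitals.
Gbp3: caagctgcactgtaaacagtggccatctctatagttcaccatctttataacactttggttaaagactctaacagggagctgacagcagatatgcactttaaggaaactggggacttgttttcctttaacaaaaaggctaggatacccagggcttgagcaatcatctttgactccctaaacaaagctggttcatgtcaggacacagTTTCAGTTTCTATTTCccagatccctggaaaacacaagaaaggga
Irgm1: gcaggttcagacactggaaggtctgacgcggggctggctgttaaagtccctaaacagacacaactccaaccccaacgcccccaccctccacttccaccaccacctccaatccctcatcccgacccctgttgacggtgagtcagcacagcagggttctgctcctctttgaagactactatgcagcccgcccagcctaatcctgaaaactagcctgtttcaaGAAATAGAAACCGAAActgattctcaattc
Irf1: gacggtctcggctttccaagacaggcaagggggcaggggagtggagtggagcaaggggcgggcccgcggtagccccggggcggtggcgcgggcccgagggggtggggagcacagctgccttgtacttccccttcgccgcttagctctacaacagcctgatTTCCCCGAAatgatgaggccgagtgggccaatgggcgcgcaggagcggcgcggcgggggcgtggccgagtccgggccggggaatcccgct

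Motifs were searched on both strands as GAAA, any 2 bases and GAAA for the ISRE, as TTCNNNGAA for the GAS, and as GGG, any 2 bases and TTTCC for the NF-κB (kB) element. Overlapping matches were kept, and no match of 1 motif overlapped a match of another in these genes. Of the 21 genes, 18 matched the RefSeq promoter table, with 21 starts, and Ifi27l1, Ifi27l2a and Ifi27l2b did not match. An ISRE stood in front of 4 genes (Gbp3, Irgm1, Ifi205 and Irf2), against 2.98% of 32851 windows of the same length in the whole table. In Gbp3 the matches covered bases -45 to -36 and -39 to -30 before the start, and in Irgm1 bases -30 to -21 and -24 to -15. A GAS stood in front of 6 genes (Ifi202b, Ifitm6, Irf1, Irf2, Irf2bp1 and Irf8), against 7.02% of windows, and a kB element in front of 1 (Irf2), against 1.41%. Single sites of Ifi205 (ISRE) and Irf8 (GAS) are shown, with 10 bases on each side, as further genes that rose with DSS in RelaΔhepStat3Δhep mice, at chr1:174031870-174031899 on the minus strand, and chr8:120736177-120736205 and chr8:120736195-120736223 on the plus strand.
Ifi205: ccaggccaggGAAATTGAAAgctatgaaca
Irf8 (bases -171 to -163): caaaagtgatTTCTCGGAAagagagcgct
Irf8 (bases -153 to -145): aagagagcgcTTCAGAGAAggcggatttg

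Of 10 genes with a window that rose with DSS in RelaΔhepStat3Δhep mice, 3 held an ISRE, 4 a GAS and none a kB element. Of the 8 others, which include the untested Ifitm7 with no match, 1 held an ISRE, 2 a GAS and 1 a kB element. Irf2, which was not called in any comparison, alone held all 3 motifs. A match describes letters in the window and does not show that a factor binds there.

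**Figure D1:**
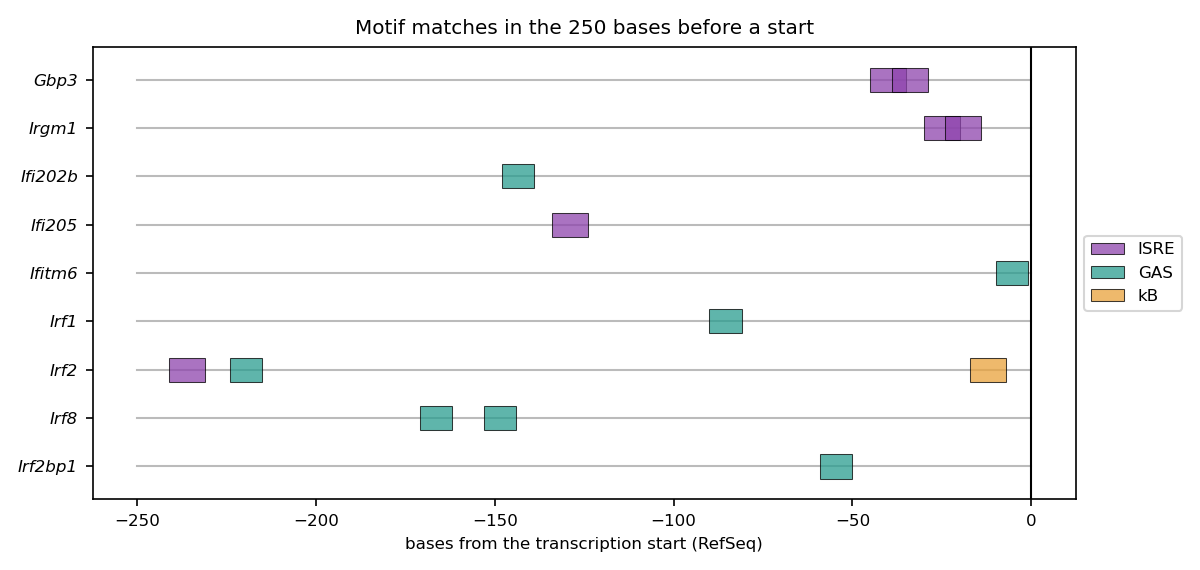
Positions of ISRE, GAS and kB matches in the 250 bases before a RefSeq start, in bases from the start at 0, for the 9 genes with a match. The 2 ISRE matches of Gbp3 and the 2 of Irgm1 overlap and lie within the last 45 bases, while the matches of Irf2 lie at both ends of its window.

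Levels per kilobase of exon allow genes to be ranked. In untreated wild-type liver Ifitm3 was the most abundant of these genes at 385 ± 32.01 CPM per kilobase (mean ± SD, n = 3), followed by Ifi27l1 at 53.6 ± 8.75. Irgm1 at 20.2 ± 0.462 and the corepressor gene Irf2bp2 at 19.5 ± 6.11 came next and were within their spread of each other, as were Ifi27l2a, Ifi30 and Ifi35 at means of 17.8, 17.6 and 17.3. Among the regulatory factors Irf2 (15.6 ± 3.87), Irf1 (12.03 ± 0.734) and Irf3 (11.6 ± 1.40) were near each other, Irf5 was at 7.39 ± 2.54 and Irf8 at 1.19 ± 0.310. Irf4 was the least abundant tested gene at 0.166 ± 0.0234 CPM per kilobase. Gbp3 ranked low in untreated wild-type liver (5.06 ± 2.83) and stood at 71.6 ± 18.9 in DSS-treated RelaΔhepStat3Δhep liver, where the means of Ifitm3, Ifi27l1 and Irgm1 were higher.

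**Figure D2:**
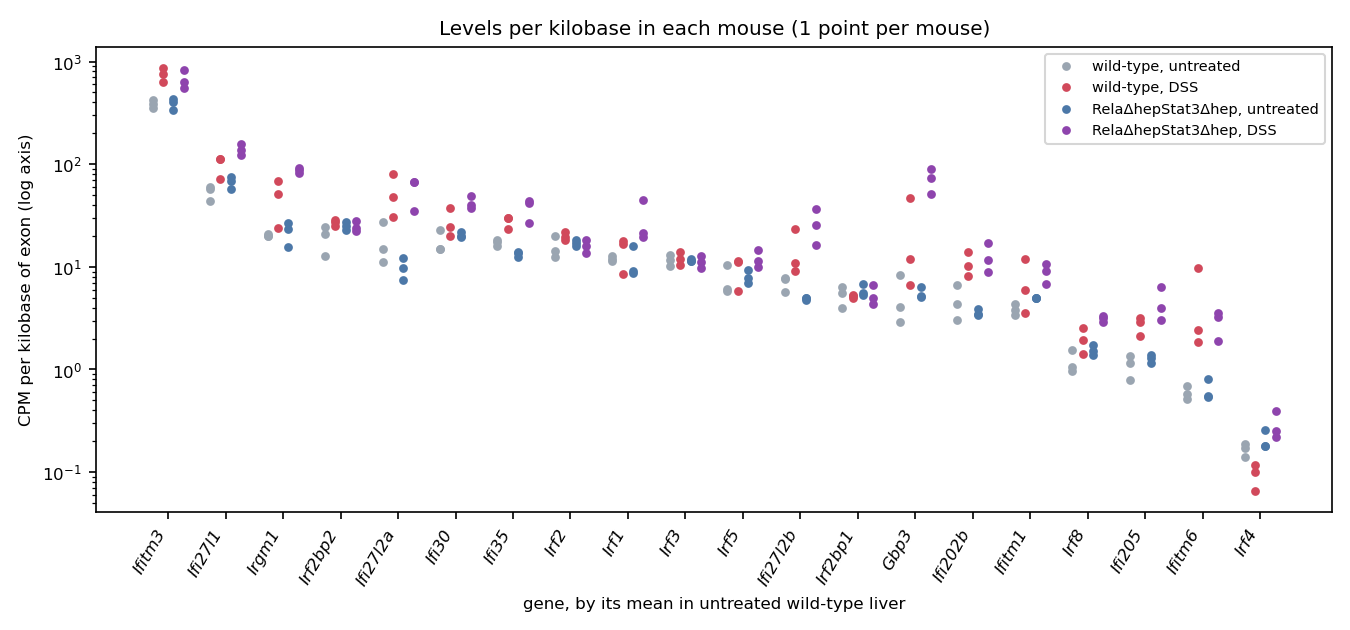
Level of the 20 tested genes in CPM per kilobase of exon on a log axis, 1 point per mouse and 1 colour per group, in the order of the mean in untreated wild-type liver. Ifitm3 is highest in all groups, Irf4 is lowest in all groups, and Gbp3 moves furthest up from its place in the order with DSS.

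The first question was how these genes respond to DSS colitis in liver of each genotype. In wild-type mice 18 of the 20 genes had a positive log2 fold change, against 52.2% of all genes, with a median of 0.80 (all genes 0.02), but only 2 passed the test, Ifitm3 and Ifitm6, both higher. This compares with 0.685% of all genes called in either direction and 0.453% called higher. In RelaΔhepStat3Δhep mice 13 of the 20 rose and none fell, against 7.02% of all genes called in either direction, 4.57% called higher and 2.46% called lower. There 16 of the 20 had a positive log2 fold change, against 49.4% of all genes, with a median of 1.06 (all genes -0.01). The 13 were both GTPases, both p200 genes, Ifitm3 and Ifitm6, all 5 further Ifi genes, and Irf1 and Irf8. Without single libraries 7 to 11 genes were called in RelaΔhepStat3Δhep mice, the fewest (7) without the first or the second untreated library and 8 without the first DSS-treated one. The size of the 2 counts is no test of a difference between the genotypes.

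At an unadjusted p under 0.05 there were 15 genes in wild-type (14.5% of all genes) and 14 in RelaΔhepStat3Δhep mice (24.1% of all genes). DESeq2, run on the same counts, called 10 genes in wild-type mice (5.61% of the genes to which it gave an adjusted p), namely Irgm1, Ifitm3, Ifitm6, Irf8, Ifi27l1, Ifi27l2a, Ifi27l2b, Ifi35, Ifi202b and Ifi205, and 13 in RelaΔhepStat3Δhep mice (13.9%). In wild-type mice the 3 DSS-treated livers lay above all 3 untreated ones for 10 genes and below them for 1, Irf4, against 9.49% and 9.21% of all genes. In RelaΔhepStat3Δhep mice they lay above for 15 genes, against 17.8% of all genes, and below for none, against 14% of all genes. With high Xist as a covariate no gene of the 20 was called in either genotype. Within RelaΔhepStat3Δhep mice high Xist and DSS coincide, so this fit sets the covariate from 1 library alone, the third untreated wild-type one, and cannot show how much of a DSS response is separate from Xist. In it the log2 fold changes of the 13 genes called in RelaΔhepStat3Δhep mice had a median of 1.43 in place of 1.80, standard errors were 1.86 times as large by the median, and edgeR adjusted p-values ran from 0.206 to 0.563. The values of Gbp3, Ifi202b and Ifi27l2a fell most in this fit, to 2.43, 0.96 and 1.45. The 2 genes called in wild-type mice had a median log2 fold change of 1.99 in it, in place of 1.96. Their standard errors were 1.2 times as large by the median, and their edgeR adjusted p-values were 0.114 and 0.130.

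Gbp3, a guanylate-binding protein, had the largest log2 fold change with DSS among the 20 genes in RelaΔhepStat3Δhep mice. The gene (ENSMUSG00000028268) lies at chr3:142223016-142236173, plus strand in NCBIM37 (mm9), the build of the counts. It was at 16.4, 16.9 and 20.8 CPM in untreated and 239, 289 and 167 CPM in DSS-treated RelaΔhepStat3Δhep mice. Every DSS-treated liver of that genotype was above every other liver of the series. The rise was 12.9-fold (log2 3.69 ± 0.71, edgeR adjusted p = 0.0166). Without any of the 3 untreated libraries or the first DSS-treated one of this genotype the adjusted p was 0.0593 to 0.0831. In wild-type mice Gbp3 was at 13.1, 9.31 and 26.7 CPM without and 152, 21.3 and 38.7 CPM with DSS. Only the first of the DSS-treated wild-type livers stood far above the untreated ones, and the second lay below the third untreated liver. The difference of 2.11 ± 0.67 on the log2 scale did not pass the test (edgeR adjusted p = 0.181).

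Irgm1 (ENSMUSG00000046879, chr11:48675470-48685185, minus strand), an immunity-related GTPase that regulates its relatives and autophagy, also rose in RelaΔhepStat3Δhep mice. In RelaΔhepStat3Δhep mice it lay at 135, 91.2 and 155 CPM without and 538, 474 and 508 CPM with DSS. The DSS-treated livers were close to each other and above all 9 others, and the rise was 3.98-fold (log2 1.99 ± 0.31, edgeR adjusted p = 0.00448). Wild-type livers held 121, 115 and 117 CPM without DSS, an SD of 2.68 CPM, and 402, 140.2 and 295 CPM with it. All 3 treated livers were above the untreated ones, the second only slightly, and the log2 fold change of 1.25 ± 0.30 did not pass the test (edgeR adjusted p = 0.0804). It passed by DESeq2 (adjusted p = 0.00256) and, without the second DSS-treated wild-type library, by edgeR, with a log2 fold change of 1.57 and an adjusted p of 0.00555.

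The p200 genes Ifi202b and Ifi205 lie on chromosome 1, at chr1:175892700-175912975, minus strand and chr1:175942129-175961886, minus strand, and both rose with DSS in RelaΔhepStat3Δhep mice. Ifi202b, whose product can inhibit the DNA sensor Aim2, was at 6.98, 6.26 and 6.06 CPM in untreated and 30.4, 21.0 and 15.9 CPM in DSS-treated RelaΔhepStat3Δhep liver. Ifi205 was at 2.23, 2.07 and 1.88 and 10.3, 6.36 and 4.86 CPM. For both genes all treated livers were above all untreated ones. The rises were 3.49-fold (log2 1.80 ± 0.30) and 3.48-fold (log2 1.80 ± 0.29), with edgeR adjusted p-values of 0.00634 and 0.00539. Wild-type levels went from 7.79, 5.44 and 11.9 to 25.3, 18.4 and 14.5 CPM for Ifi202b. For Ifi205 they went from 1.88, 1.27 and 2.19 to 5.10, 4.65 and 3.40 CPM. The wild-type groups did not overlap for either gene, yet the log2 fold changes of 1.21 and 1.30 did not pass by edgeR (adjusted p = 0.0849 and 0.0627) and passed by DESeq2 (adjusted p = 0.00578 and 0.00241). Of the 100-base windows of the Ifi205 transcripts 41.5% also occur in another gene, so its counts depend on how shared reads were assigned.

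The Ifitm genes lie in a cluster on chromosome 7 apart from Ifitm7 on chromosome 16, and 2 of them, Ifitm3 and Ifitm6, were the members that passed the test in wild-type mice. Ifitm3, a restriction factor of endosomal virus entry (chr7:148195485-148196669, minus strand), was at 259.9, 284 and 240.3 CPM in untreated and 429, 585 and 508 CPM in DSS-treated wild-type liver. RelaΔhepStat3Δhep livers held 289.7, 274 and 231 CPM and 371, 558 and 428 CPM. In both genotypes the groups did not overlap. The rise was 1.94-fold in wild-type (log2 0.96 ± 0.19, edgeR adjusted p = 0.0364) and 1.71-fold in RelaΔhepStat3Δhep mice (log2 0.77 ± 0.19, edgeR adjusted p = 0.0278). In RelaΔhepStat3Δhep mice the call was lost without any of the 3 untreated libraries and without the second or the third DSS-treated one, with adjusted p-values of 0.0503 to 0.102.

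Ifitm6 (chr7:148201711-148202791, minus strand) was scarce without DSS, at 0.276, 0.314 and 0.377 CPM in wild-type and 0.439, 0.290 and 0.297 CPM in RelaΔhepStat3Δhep mice. With DSS it was at 1.30, 5.25 and 1.01 CPM and 1.91, 1.77 and 1.02 CPM. The second wild-type liver, the one with the high neutrophil markers, was by far the highest of the 12. Ifitm6 had the largest log2 fold change of these genes in wild-type mice, 2.96 ± 0.57 (edgeR adjusted p = 0.0358), and rose by 2.19 ± 0.56 in RelaΔhepStat3Δhep mice (edgeR adjusted p = 0.0351). The call in RelaΔhepStat3Δhep mice was lost without any of the 3 untreated libraries and without the first or the second DSS-treated one (adjusted p = 0.0685 to 0.135). Leaving out single mice moved the wild-type value between 1.83 and 3.34, and it was lowest without the second DSS-treated liver. Both wild-type calls were lost without any 1 of the 3 untreated wild-type libraries, and that of Ifitm3 also without the second (adjusted p = 0.0552) or the third DSS-treated library (adjusted p = 0.0652). Both were also lost with only the wild-type libraries in the model (adjusted p = 0.133 for Ifitm3 and 0.182 for Ifitm6), and Ifitm6 with a replicate block (adjusted p = 0.0564). Ifitm1, at 5.41 ± 0.0272 CPM in untreated and 9.73 ± 2.07 CPM in DSS-treated RelaΔhepStat3Δhep liver (mean ± SD, n = 3), did not overlap between these groups but did not pass the test (log2 0.85 ± 0.33, edgeR adjusted p = 0.139). In wild-type mice its groups overlapped and the log2 fold change was 0.89 ± 0.33 (edgeR adjusted p = 0.236).

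The 5 further Ifi genes all rose in RelaΔhepStat3Δhep mice and were all higher in the mean, without passing the test, in wild-type mice. Ifi35, whose protein pairs with Nmi (chr11:101309721-101320012, plus strand), had the smallest adjusted p of all members. It was at 23.8, 24.2 and 21.6 CPM in untreated and 72.0, 76.0 and 46.0 CPM in DSS-treated RelaΔhepStat3Δhep liver, a 2.79-fold rise (log2 1.48 ± 0.18, edgeR adjusted p = 0.00103). In wild-type liver it was at 27.7, 31.7 and 30.4 and 51.8, 40.6 and 51.2 CPM (log2 0.68 ± 0.17, edgeR adjusted p = 0.0930). The groups did not overlap in either genotype.

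Ifi27l1, Ifi27l2a and Ifi27l2b are small membrane protein genes next to each other on chromosome 12. Ifi27l1 (chr12:104672421-104678449, plus strand) was at 100.4, 109.7 and 84.4 CPM in untreated and 229, 204 and 181 CPM in DSS-treated RelaΔhepStat3Δhep mice. Wild-type mice had 64.0, 84.5 and 87.6 and 166, 165 and 104 CPM. The rise was 2.09-fold in RelaΔhepStat3Δhep (log2 1.06 ± 0.20, edgeR adjusted p = 0.00991), and the wild-type log2 fold change was 0.88 ± 0.20 (edgeR adjusted p = 0.0627). Without the third DSS-treated wild-type library, the lowest of that group, the wild-type value was 1.07 with an adjusted p of 0.0184.

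Ifi27l2a (chr12:104680377-104681890, minus strand) and Ifi27l2b (chr12:104680379-104695433, minus strand) overlap on the same strand, and 32.1% and 10.2% of their 100-base windows occur in another gene, so the split of reads between them is uncertain. Ifi27l2a lay at 4.52, 5.67 and 3.48 CPM without and 31.1, 30.8 and 16.1 CPM with DSS in RelaΔhepStat3Δhep mice. Ifi27l2b lay at 6.19, 6.43 and 6.48 and 33.6, 47.8 and 21.5 CPM. These were the members with the largest rises after Gbp3, 5.71-fold (log2 2.51 ± 0.43) and 5.39-fold (log2 2.43 ± 0.36), with edgeR adjusted p-values of 0.00936 and 0.00396. In wild-type liver Ifi27l2a went from 6.89, 5.21 and 12.7 to 22.0, 36.9 and 14.0 CPM. Ifi27l2b went from 10.2, 7.37 and 10.001 to 14.4, 30.3 and 11.8 CPM. Both were highest in the second DSS-treated wild-type liver, and neither passed by edgeR (log2 1.56 and 1.04, adjusted p = 0.118 and 0.183), while both passed by DESeq2 (adjusted p = 0.00393 and 0.0468). Without that liver the log2 fold change of Ifi27l2b was 0.51.

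Ifi30, a thiol reductase of lysosomes that serves antigen processing (chr8:73286673-73291050, minus strand), was at 19.8, 19.6 and 21.7 CPM in untreated and 40.0, 49.1 and 37.2 CPM in DSS-treated RelaΔhepStat3Δhep liver. The rise was 2.07-fold (log2 1.05 ± 0.23, edgeR adjusted p = 0.0177). The call was lost without any 1 of the 6 libraries of this genotype except the third DSS-treated one (adjusted p = 0.0523 to 0.0804). In wild-type liver it was at 22.8, 14.8 and 15.0 and 24.4, 37.1 and 19.8 CPM, groups that overlapped (log2 0.63 ± 0.23, edgeR adjusted p = 0.214).

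Of the 6 regulatory factors 2 rose with DSS in RelaΔhepStat3Δhep mice and none was called by edgeR in wild-type mice, where DESeq2 called Irf8. Irf1 (chr11:53583516-53591876, plus strand) was at 34.9, 36.6 and 62.9 CPM in untreated and 85.5, 78.2 and 179 CPM in DSS-treated RelaΔhepStat3Δhep liver. The third treated liver was far above the others, although it was the lowest of its group for 12 of the 20 genes. The rise was 2.55-fold (log2 1.35 ± 0.36, edgeR adjusted p = 0.0469), and without that liver it was 0.87 on the log2 scale with an adjusted p of 0.121. The call was also lost without the first DSS-treated (adjusted p = 0.0904), the first untreated (adjusted p = 0.127) or the second untreated library (adjusted p = 0.164) of this genotype. It was lost as well with DESeq2 size factors (adjusted p = 0.0524), with no filter on low counts (adjusted p = 0.0963) and with only this genotype in the model (adjusted p = 0.0745). Wild-type livers held 50.8, 45.0 and 47.8 CPM without and 71.0, 33.8 and 65.7 CPM with DSS. The second treated liver was below all untreated ones, and the log2 fold change was 0.25 ± 0.36 (edgeR adjusted p = 0.811). A gene on the opposite strand overlaps Irf1, as is the case for Ifi35, and the counting is not stated to use strand.

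Irf8, a factor of the myeloid lineage (chr8:123260258-123280594, plus strand), was at 10.8, 9.71 and 12.2 CPM in untreated and 23.3, 20.5 and 22.2 CPM in DSS-treated RelaΔhepStat3Δhep liver. Its treated livers were close to each other, and the rise was 2.02-fold (log2 1.01 ± 0.22, edgeR adjusted p = 0.0170). A gene on the same strand overlaps Irf8, although none of the 100-base windows of the Irf8 transcripts occurs in another gene. The call was lost without the first or the second untreated or the first DSS-treated library (adjusted p = 0.0521 to 0.0844). In wild-type liver it was at 10.9, 7.42 and 6.86 and 13.7, 18.01 and 9.95 CPM, with an overlap of 1 treated and 1 untreated liver (log2 0.72 ± 0.22, edgeR adjusted p = 0.142).

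The remaining regulatory factors were not called with DSS by either tool. Irf4, a factor of lymphocytes and some myeloid cells (chr13:30841095-30858796, plus strand), was at 0.881, 0.806 and 0.664 CPM in untreated and 0.307, 0.557 and 0.473 CPM in DSS-treated wild-type liver. In RelaΔhepStat3Δhep liver it was at 0.851, 0.842 and 1.201 and 1.85, 1.19 and 1.05 CPM. It was the only member whose treated wild-type livers were all below the untreated ones, with the smallest log2 fold change of that comparison (log2 -0.81 ± 0.35, edgeR adjusted p = 0.302), and in RelaΔhepStat3Δhep mice its log2 fold change was 0.50 ± 0.33 (edgeR adjusted p = 0.395). Irf2 (chr8:47825099-47932812, plus strand), near Irf1 in its mean per kilobase over all 12 livers (17.1 and 16.6 CPM per kilobase) and below it in DSS-treated RelaΔhepStat3Δhep liver (16.1 and 28.8), was at 49.6, 35.2 and 31.3 CPM in untreated and 45.1, 53.8 and 48.7 CPM in DSS-treated wild-type liver, and at 42.3, 45.0 and 39.6 and 34.2, 40.0 and 45.5 CPM in RelaΔhepStat3Δhep liver. Its log2 fold changes were 0.35 ± 0.17 and -0.09 ± 0.17, and neither passed the test. The 95% interval of the Irf3 log2 fold change was -0.26 to 0.37 in wild-type and -0.34 to 0.29 in RelaΔhepStat3Δhep mice, and that of Irf5 -0.24 to 0.95 and -0.02 to 1.17. Irf5 was at 27.0, 20.3 and 22.8 CPM in untreated and 33.0, 42.6 and 28.8 CPM in DSS-treated RelaΔhepStat3Δhep liver, groups that did not overlap (log2 0.57 ± 0.28, edgeR adjusted p = 0.225).

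The corepressor genes were not called with DSS. Irf2bp2 (chr8:129112196-129117336, minus strand) was at 57.6, 111 and 95.6 CPM in untreated and 125, 113 and 131 CPM in DSS-treated wild-type liver, and at 114, 124 and 103 and 109, 100.2 and 125 CPM in RelaΔhepStat3Δhep liver. Its first untreated wild-type liver was the lowest of the 12, and the wild-type log2 fold change was 0.48 ± 0.20 (edgeR adjusted p = 0.297). Irf2bp1 (chr7:19589414-19592110, plus strand) was at 18.2, 15.0 and 14.3 CPM and 11.7, 18.04 and 13.4 CPM in RelaΔhepStat3Δhep liver and had the smallest log2 fold change of that comparison, -0.14 ± 0.19 (edgeR adjusted p = 0.706).

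**Figure D3:**
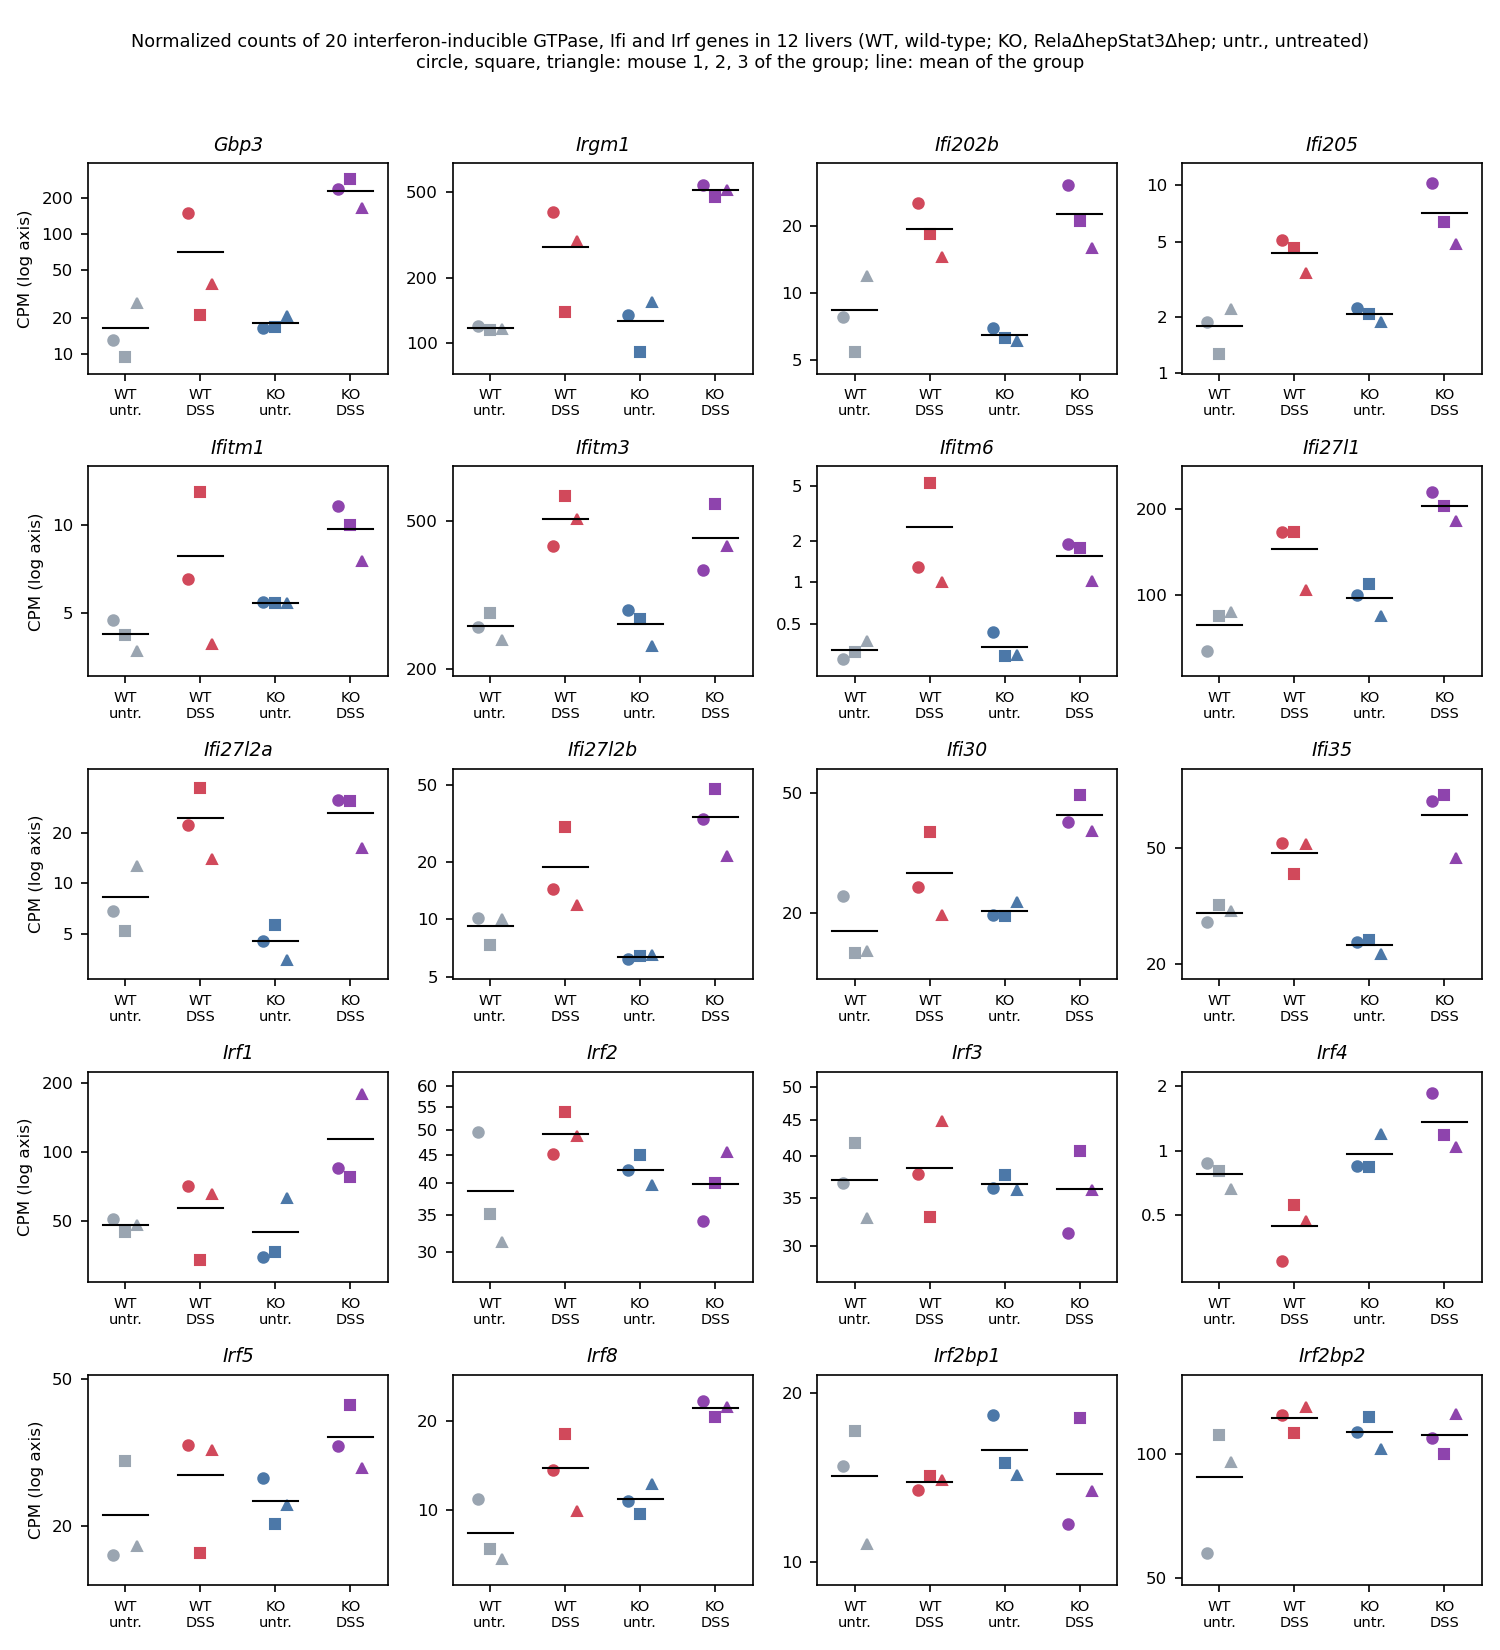
CPM of the 20 tested genes on log axes in each of the 12 livers (circle, square and triangle for mouse 1, 2 and 3 of a group), with the group mean as a line. Gbp3 and Irgm1 lie highest in the 3 DSS-treated RelaΔhepStat3Δhep livers, while for Ifitm6 the second DSS-treated wild-type liver (5.25 CPM) is highest.

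The order of the DSS-treated wild-type livers differed from gene to gene. The second DSS-treated wild-type liver was the lowest of its group for 7 genes (Gbp3, Irgm1, Irf1, Irf3, Irf5, Irf2bp2 and Ifi35) and the highest for 10 (Ifitm1, Ifitm3, Ifitm6, Irf2, Irf4, Irf8, Irf2bp1, Ifi27l2a, Ifi27l2b and Ifi30). The highest of the 3 wild-type livers exceeded the lowest 7.15-fold for Gbp3, 5.22-fold for Ifitm6 and 2.87-fold for Irgm1, where the same ratios in RelaΔhepStat3Δhep liver were 1.73, 1.88 and 1.13. The spread was not wider in wild-type mice throughout. For 8 of the 20 genes (Ifitm3, Irf1, Irf2, Irf2bp1, Irf2bp2, Ifi35, Ifi202b and Ifi205) the ratio was larger in RelaΔhepStat3Δhep liver, for example 1.54 against 1.06 for Irf2bp1 and 1.65 against 1.28 for Ifi35. The median log2 difference of the 20 genes from the untreated mean of the own genotype was 0.68, 0.79 and 0.54 in the wild-type and 1.05, 1.07 and 0.87 in the RelaΔhepStat3Δhep mice.

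**Figure D4:**
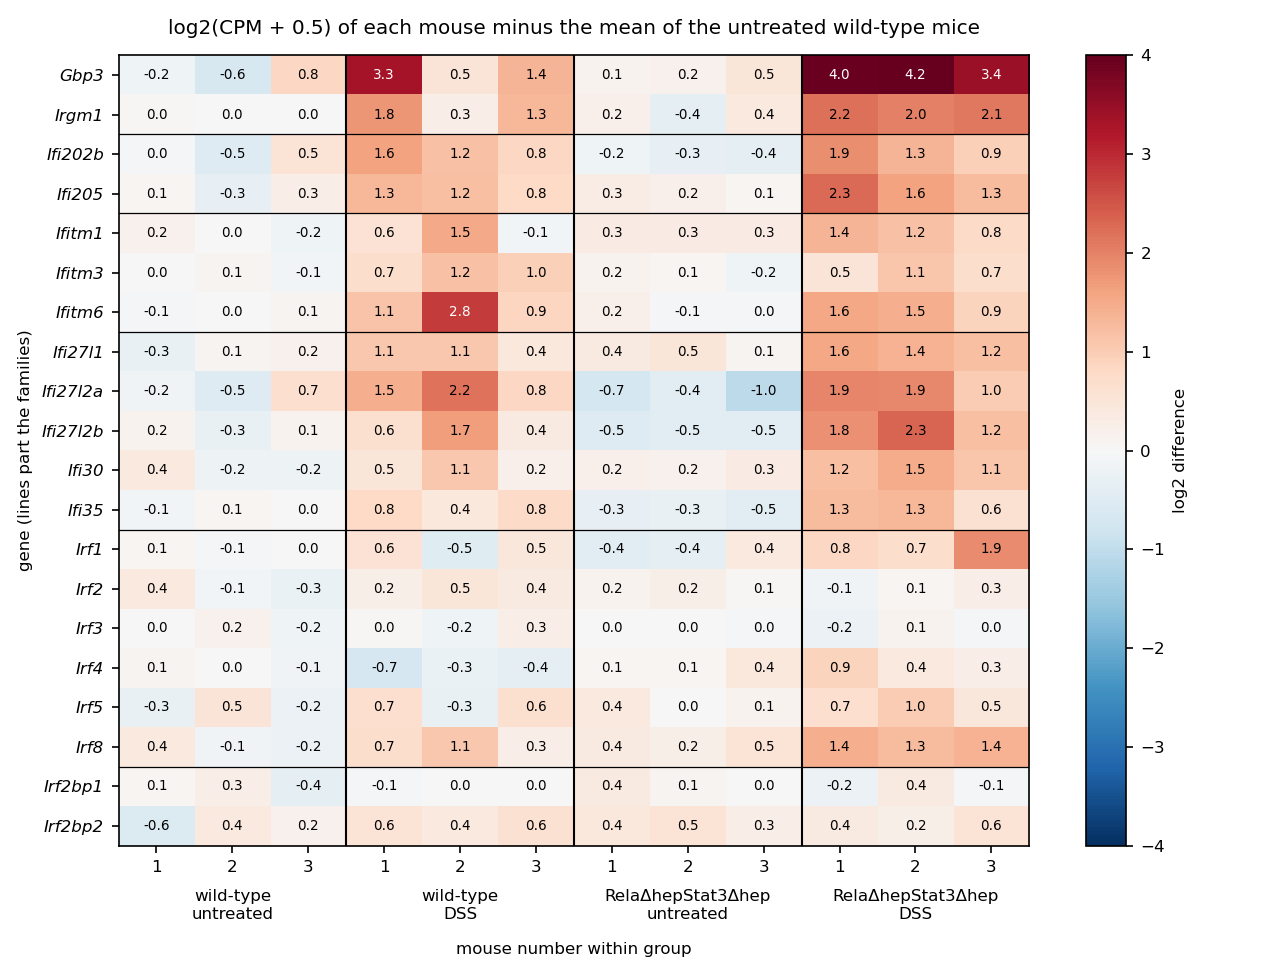
log2(CPM + 0.5) of each of the 20 tested genes in each mouse after subtraction of the untreated wild-type mean, red for higher and blue for lower. The DSS-treated RelaΔhepStat3Δhep columns are red for the GTPase, p200, Ifitm and other Ifi genes, and within the wild-type DSS group the second mouse is pale for Gbp3 and Irgm1 and dark for Ifitm6 and Ifi27l2a.

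Markers of other liver cells moved beside these genes. Summed Kupffer cell markers (6 of 8 with counts) ranged from 218 to 454 CPM in untreated and 356 to 786 CPM in DSS-treated wild-type liver, and from 259 to 283 CPM and 528 to 854 CPM in RelaΔhepStat3Δhep liver, where all 6 were called higher by edgeR. In wild-type mice none of the 6 was called by edgeR or DESeq2. Summed monocyte markers (3 of 5 with counts) went from 43.1 to 70.4 CPM without DSS to 129.7 to 249 CPM with DSS in RelaΔhepStat3Δhep liver. By edgeR 1 of them was called higher there. In wild-type liver they went from 46.2 to 63.1 CPM without to 53.6 to 109.7 CPM with DSS, and none was called by edgeR. DESeq2 called Itgam among them higher in wild-type mice (log2 2.90, DESeq2 adjusted p = 0.0203, edgeR adjusted p = 0.153). Markers of T and NK cells (9 of 9 with counts) summed to 5.36 to 8.02 CPM in untreated and 10.6 to 20.7 CPM in DSS-treated RelaΔhepStat3Δhep liver. In wild-type liver the sum was 5.75 to 13.0 CPM without and 2.60 to 9.32 CPM with DSS. By edgeR 1 of these markers was called higher with DSS in RelaΔhepStat3Δhep mice. Of 5 stellate cell markers 1 was called higher there by edgeR, while their sum was 218 to 247 CPM without and 212 to 223 CPM with DSS. None of the endothelial markers (6 of 6 with counts) was called by edgeR. Their median log2 fold change with DSS was 0.44 in RelaΔhepStat3Δhep and -0.23 in wild-type mice. DESeq2 called Kdr among them lower with DSS in wild-type mice (DESeq2 adjusted p = 0.00501, edgeR adjusted p = 0.0749). B cell markers (4 of 4 with counts) summed to 4.24 to 4.63 CPM in untreated and 1.83 to 2.69 CPM in DSS-treated wild-type liver. In RelaΔhepStat3Δhep liver they summed to 1.61 to 2.08 and 1.89 to 7.89 CPM, and none was called by edgeR in either genotype. Neutrophil markers (6 of 6 with counts) summed to 0.345 to 0.715 CPM without and 6.07 to 21.9 CPM with DSS in RelaΔhepStat3Δhep liver and to 1.69 to 3.45 and 2.26 to 102 CPM in wild-type liver, and Ly6g was at 0 in 10 of the 12 libraries. Plasmacytoid dendritic cell markers (2 of 3 with counts) summed to at most 2.25 CPM in any library. Cholangiocyte markers (4 of 4 with counts) summed to 6.02 to 9.01 CPM without and 12.2 to 21.0 CPM with DSS in wild-type liver. Sox9 alone rose there in the mean, from 5.69 to 13.4 CPM. Only 1 of the 4 had a positive log2 fold change in wild-type mice, with a median of -0.17. In RelaΔhepStat3Δhep liver the cholangiocyte markers summed to 9.66 to 14.4 and 10.7 to 16.4 CPM, with none called by edgeR in either genotype. DESeq2 called the cholangiocyte marker Sox9 higher with DSS in wild-type mice (adjusted p = 0.00671). It also called the neutrophil markers S100a8, S100a9 and Retnlg higher there (adjusted p = 0.0260, 0.0351 and 0.00395). Hepatocyte markers summed to between 100369 and 185020 CPM in the 12 libraries, with none of the 6 called by edgeR in any comparison. The part of these cells in the changes of the interferon genes was not tested, and in bulk tissue more cells of a type and more RNA per cell cannot be told apart.

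The second question was whether the deletion itself shifted these genes in mice without colitis. Between untreated RelaΔhepStat3Δhep and wild-type livers edgeR called none of the 20 genes, against 0.0623% of all genes, of which 0.034% were called higher and 0.0283% lower. None of the 20 reached an unadjusted p under 0.05 either, against 11.7% of all genes, and DESeq2 called none, against 2.31%. Log2 fold changes lay between -0.86 and 0.38, with a median of 0.13, and 14 of the 20 were above 0, against 50.2% of all genes. Ifi27l2a was the lowest, at 6.89, 5.21 and 12.7 CPM in wild-type and 4.52, 5.67 and 3.48 CPM in RelaΔhepStat3Δhep liver (log2 -0.86 ± 0.42, edgeR adjusted p = 0.463), and Irf8 the highest (log2 0.38 ± 0.22, edgeR adjusted p = 0.522). The livers of RelaΔhepStat3Δhep mice lay below all wild-type ones for Ifi27l2b and Ifi35 and above them for Ifitm1, against 10.7% and 9.56% of all genes. For Gbp3 the interval of the log2 difference was wide, -1.30 to 1.58, so a difference of several-fold could have gone undetected, whereas for Ifitm3 it was -0.38 to 0.42.

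The third question was how the genotypes compare once both have had DSS. No member was called by edgeR, against 0.334% of all genes (0.187% higher and 0.147% lower), although 10 of 20 reached an unadjusted p under 0.05, against 14.3% of all genes. All of these 10 were higher in RelaΔhepStat3Δhep liver: Gbp3, Irgm1, Irf1, Irf4, Irf8, Ifi27l1, Ifi27l2b, Ifi30, Ifi35 and Ifi205. DESeq2 called 1, Irf4, against 3.91% of all genes. The median log2 fold change was 0.39, and 15 of the 20 were above 0, against 49.7% of all genes. For 7 genes the groups did not overlap (Gbp3, Irgm1, Irf1, Irf4, Irf8, Ifi27l1 and Ifi30), all with RelaΔhepStat3Δhep above wild-type, against 8.8% of all genes, and none lay below, against 7.98%.

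Gbp3 gave the largest difference, 3.27-fold (log2 1.71 ± 0.66, edgeR adjusted p = 0.292). The first DSS-treated wild-type liver at 152 CPM was near the lowest RelaΔhepStat3Δhep liver at 167 CPM. Without that wild-type library the log2 fold change was 2.95 with an adjusted p of 0.0142, and with high Xist as a covariate it was 0.46 with an adjusted p of 0.974. Irf4 had the smallest p of the comparison, with a 3.05-fold higher level in RelaΔhepStat3Δhep liver (log2 1.61 ± 0.35, edgeR adjusted p = 0.0737, DESeq2 adjusted p = 0.00186). Irgm1 was 1.81-fold higher (log2 0.86 ± 0.30, edgeR adjusted p = 0.231), Irf1 2.01-fold (log2 1.01 ± 0.36, adjusted p = 0.245) and Irf8 1.59-fold (log2 0.67 ± 0.22, adjusted p = 0.203). Ifitm6 had the smallest log2 fold change, -0.68 ± 0.52 (edgeR adjusted p = 0.601), with the second wild-type liver as its highest value. All DSS-treated RelaΔhepStat3Δhep livers had high Xist, which was at most 11.9 CPM in the DSS-treated wild-type mice. With DSS, the difference between the genotypes and that in sex-linked transcripts therefore cannot be told apart.

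**Figure D5:**
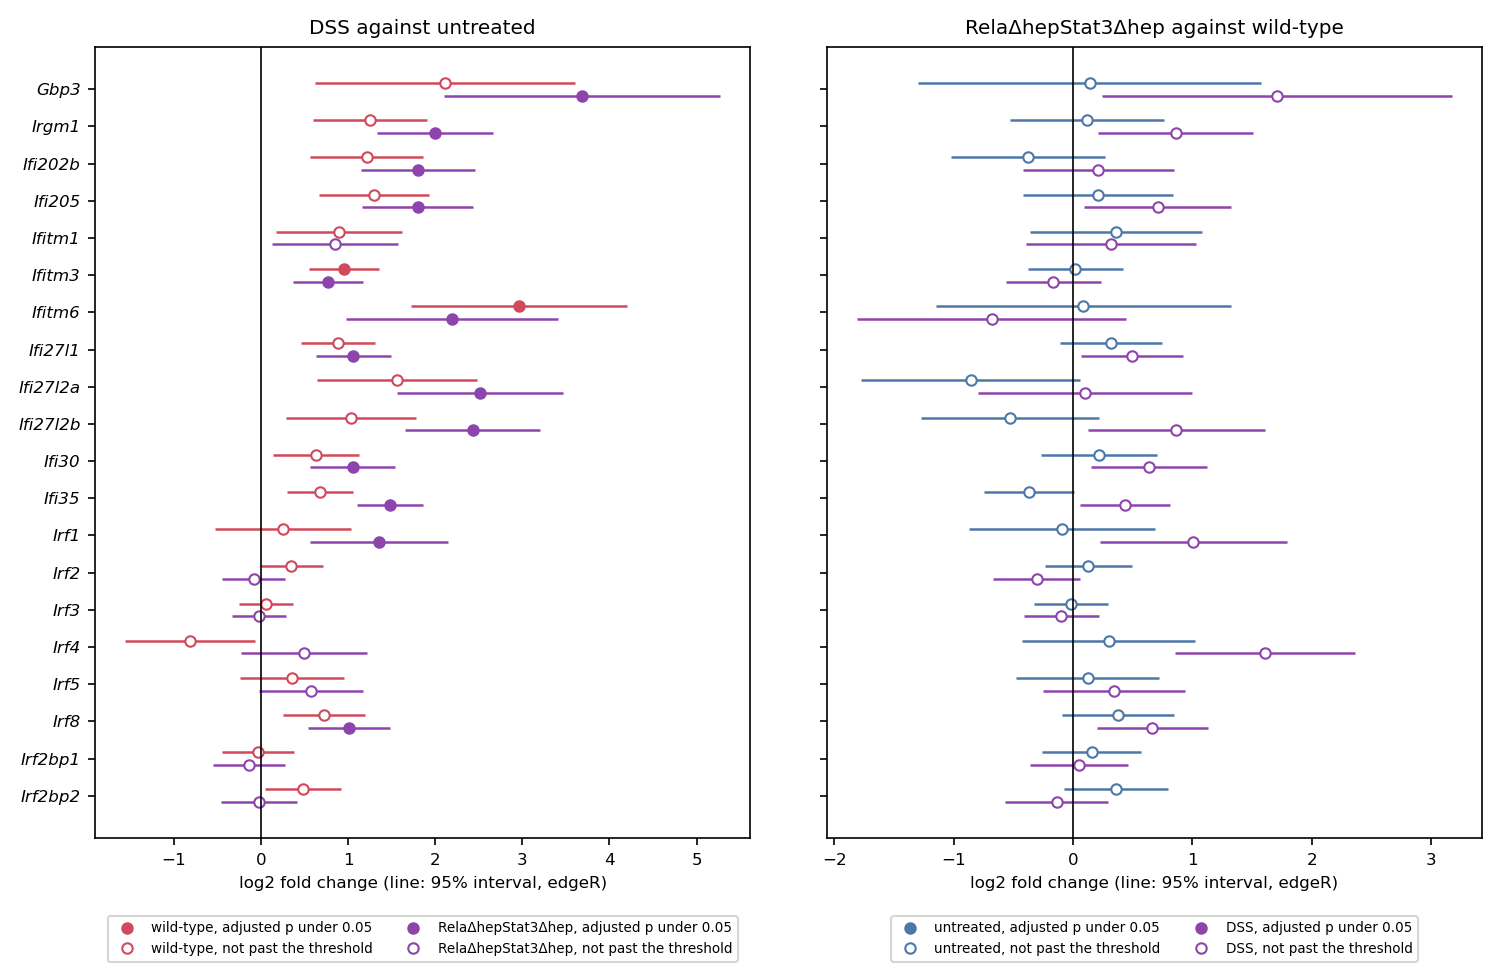
Log2 fold changes of the 20 tested genes with 95% intervals from edgeR, on the left DSS against untreated within each genotype and on the right RelaΔhepStat3Δhep against wild-type within each treatment. Filled points passed an adjusted p under 0.05: 2 in wild-type and 13 in RelaΔhepStat3Δhep mice for DSS, and none for genotype.

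The last comparison asked whether the DSS response itself differed between the genotypes. No gene of the 20 was called by edgeR, against 0.408% of all genes (0.244% above and 0.164% below 0), and none by DESeq2, against 4.5%. At an unadjusted p under 0.05 there were 3, Irf4, Ifi27l2b and Ifi35, against 16.3% of all genes. The difference was above 0 for 13 of the 20, against 48.7% of all genes. Gbp3 had the largest value, a log2 difference of 1.57 ± 0.91 between the responses (edgeR adjusted p = 0.419), and Ifitm6 the smallest, -0.77 ± 0.77 (edgeR adjusted p = 0.650). Ifi35 had the smallest p, with a difference of 0.80 ± 0.25 (95% interval 0.27 to 1.33, edgeR adjusted p = 0.161), followed by Ifi27l2b at 1.39 ± 0.48 (adjusted p = 0.199) and Irf4 at 1.31 ± 0.48 (adjusted p = 0.212). Without the first DSS-treated wild-type library Gbp3 was called, at 2.81 with an adjusted p of 0.0488, and with high Xist as a covariate its value turned to -0.23. The calls in RelaΔhepStat3Δhep and not in wild-type mice are therefore not shown to be a difference between the genotypes. High Xist in all DSS-treated RelaΔhepStat3Δhep livers enters this comparison too. A difference between the responses and one in sex-linked transcripts cannot be told apart.

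Other genes of the interferon pathway were read from a list of 52 symbols, of which 35 had counts and 32 were tested. With DSS 5 of the 32 rose in wild-type and 13 in RelaΔhepStat3Δhep mice, against 0.453% and 4.57% of all genes called higher. By edgeR none of the 32 fell with DSS, and none was called in the other 3 comparisons. Among 6 ligands with counts, Ifng was at most 0.198 CPM in any liver and Ifnb1 was counted in 1 liver only. Il18, a cytokine that promotes interferon gamma production, rose by 0.71 ± 0.16 on the log2 scale in RelaΔhepStat3Δhep mice (edgeR adjusted p = 0.0213). Of 4 receptor chains 1 rose, Ifngr2, at 21.2, 20.2 and 13.7 CPM without and 44.0, 42.8 and 33.7 CPM with DSS in RelaΔhepStat3Δhep liver (log2 1.13 ± 0.19, edgeR adjusted p = 0.00599). Of 3 kinases, Tyk2 rose there (log2 0.55 ± 0.11, adjusted p = 0.0150).

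Among 3 further transcription factors Irf7 rose in both genotypes, by 2.26 ± 0.30 in wild-type (edgeR adjusted p = 0.00756) and 2.53 ± 0.30 in RelaΔhepStat3Δhep mice (adjusted p = 0.000957). Of 7 inhibitors, Usp18, which removes Isg15 and dampens the type I receptor, rose by 1.67 and 2.93 on the log2 scale (adjusted p = 0.0101 and 0.000150). Socs1, an inhibitor of the Janus kinases, rose by 2.89 and 2.71 (adjusted p = 0.0222 and 0.00810), and Ptpn2, a phosphatase of the same pathway, rose in RelaΔhepStat3Δhep mice (log2 0.59, adjusted p = 0.0314) with a log2 fold change of 0.28 that did not pass in wild-type mice. Of 12 genes of nucleic acid sensing, Ddx58 and Dhx58, RNA helicases of the RIG-I family, rose in both genotypes, by 1.22 and 1.85 in wild-type (edgeR adjusted p = 0.0259 and 0.0261) and by 1.71 and 2.87 in RelaΔhepStat3Δhep mice (adjusted p = 0.00174 and 0.00124). Ifih1, Tlr3, Zbp1 and Tbk1 rose in RelaΔhepStat3Δhep mice by 1.89, 1.46, 3.28 and 0.51 (edgeR adjusted p = 0.00187, 0.00174, 0.00724 and 0.0425). In wild-type mice their log2 fold changes were 1.13, 0.81, 2.62 and 0.33, none past the threshold by edgeR.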

How the data were processed

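Liver RNA of 12 mice was sequenced by the authors as paired-end reads after rRNA depletion. Per the labels and the study's methods, the authors trimmed reads with fastp, aligned them to mm9 with HISAT2 and deposited estimated counts per gene from StringTie, as whole numbers without normalization. The annotation release and any strand setting are not given in the sources used here. Symbols, positions and exon lengths came from GENCODE vM1 (NCBIM37).

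The analysis used edgeR 4.0.16 in R 4.3.3 (filterByExpr, TMM factors 0.758 to 1.13, robust quasi-likelihood F test in 1 model of 4 groups, limma 3.58.1), with Benjamini-Hochberg adjustment over 17652 genes and a threshold of 0.05. The steps were tested on simulated data. Library totals were 65879529 to 82850098 counts, and the biological coefficient of variation was 0.317. Ifitm6 had 21, 23 and 25 counts in untreated wild-type liver, so counting error is not small for every gene. No libraries held identical values. Members and gene lists were chosen with earlier results of these data known. Full values were given for members past the threshold in any comparison, the highest of each family per kilobase, and the extremes of each comparison. Alternatives were the DESeq2 1.42.0 Wald test, DESeq2 size factors, a model of the compared groups alone, no filter or a minimum of 10 counts in each library, a replicate block, high Xist (over 100 CPM) as a covariate, and leaving out each library. The series' design calls the 3 samples of a group biological replicates, and they were taken as 1 mouse each. No batch labels were given, so no batch was modelled.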

Additional observations from a re-analysis of the deposited data

Results flagged for a closer look

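Irf4 had log2 fold changes of opposite sign with DSS in the 2 genotypes, -0.81 in wild-type and 0.50 in RelaΔhepStat3Δhep mice, neither past the threshold in edgeR (adjusted p = 0.302 and 0.395). All 3 DSS-treated wild-type livers lay below the untreated wild-type mean and all 3 DSS-treated RelaΔhepStat3Δhep livers above their untreated mean, although 1 untreated RelaΔhepStat3Δhep liver overlapped with the treated ones, and the responses differed by 1.31 on the log2 scale. The difference had an unadjusted p of 0.0174 and an adjusted p of 0.212 in edgeR and did not pass the threshold. Irf4 was the least abundant tested gene per kilobase, at 0.307 to 1.85 CPM. B cell markers had a median log2 fold change with DSS of -1.18 in wild-type and 1.25 in RelaΔhepStat3Δhep mice. The difference between the responses was positive for 4 of 4, with a median of 2.39. For T and NK cell markers the medians were -0.66 and 0.83 (9 of 9 with a positive difference, median 1.81). None of these differences was called by edgeR. The part of these cells in the Irf4 values was not tested.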

How the results depend on the processing

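For DSS in wild-type mice the 2 genes called became 10 with DESeq2, 0 with only the groups compared, 1 with the replicate block (Ifitm6 lost), 0 with high Xist as a covariate and 0 to 2 without single libraries. Both were lost without any of the 3 untreated wild-type libraries, and Ifitm3 without the second or the third DSS-treated one. For DSS in RelaΔhepStat3Δhep mice the 13 genes became 0 with high Xist as a covariate and 7 to 11 without single libraries, with 7 without the first or the second untreated and 8 without the first DSS-treated library. In the other 12 alternatives Irgm1, Ifi27l1, Ifi27l2a, Ifi27l2b, Ifi35, Ifi202b and Ifi205 were called in all 12, Irf8 in 9, Gbp3 in 8, Ifi30, Ifitm3 and Ifitm6 in 7 and Irf1 in 5. Gbp3, Ifi30, Ifitm6, Irf1 and Irf8 lost the call without the first DSS-treated and without the first or second untreated library, among others. For genotype without DSS the count stayed at 0. For genotype with DSS it was 1 with DESeq2 and 0 to 1 without single libraries. The difference between the responses gave 0 to 1 without single libraries, and the Gbp3 value there turned to -0.23 (adjusted p 0.984) with high Xist as a covariate. In these cases the cause was not tested, and the fits without single libraries also rest on fewer libraries. The Xist covariate is set by 1 library alone, the third untreated wild-type one.

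Of 1400 fits of single members under the alternatives 68 changed direction, none of them for a member and comparison that was called. The deviations of same-numbered mice of different groups correlated weakly (r -0.07 to 0.21 over 18 pairs), and 7 of 12 libraries were closest to their own number. With 3 mice a group these values do not settle whether the numbers pair the mice, and the main model did not pair them. The replicate block left the RelaΔhepStat3Δhep count at 13. The summed count of Tgtp1 and Tgtp2 was not run, since these genes are not analysed here. With 3 mice a group, Gbp3 and Ifitm6 had the largest standard errors of the 20 genes in each of the 5 comparisons.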
